A study of Mus musculus with 8 samples.

Results

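This account covers mouse embryonic fibroblasts made senescent with nutlin3a (n-Sen) set against the same kind of cells while proliferating, across all genes counted. Its members are 4 of the series' 8 RNA libraries, chosen by their labels: 2 proliferating and 2 n-Sen. Both groups are embryonic fibroblasts grown in 10% fetal bovine serum at 37 °C with 5% CO2 and 3 to 5% O2, and the labels give no genotype, strain or embryo of origin. The proliferating cells are labelled as the untreated control. The n-Sen cells were held in G2 with RO3306, a CDK1 inhibitor, for 16 to 20 h, given RO3306 with nutlin3a for 8 h and nutlin3a alone for 48 h, then kept for 14 days in 100 nM BI-2536, a PLK1 inhibitor given to remove cells that still divided. Nutlin3a keeps MDM2 from binding p53 and so stabilises p53. Senescence therefore comes together with these 3 agents and with the longer time in culture, and their parts cannot be told apart. The other 4 libraries are n-Sen cells kept for 24 h more in HEPES-buffered control or alkaline medium, and enter here only as a range of levels.

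Senescence is a lasting arrest of the cell cycle in cells that stay alive and active. The arrest is held by cyclin-dependent kinase inhibitors, which keep the retinoblastoma family bound to E2F factors and bring the DREAM complex to the promoters of cell cycle genes. Senescent fibroblasts are known for enlarged, flat cells, more lysosomes, altered nuclear lamina and chromatin, and a changed secretion of matrix proteins and cytokines.

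Total counts ran from 40608517 to 54183060 per library. The first principal component of the log levels held 90.0% of the variance and separated the groups, while the second, with 5.78%, set the 2 proliferating libraries apart from each other. The labels do not say whether replicates came from separate cultures, so p-values measure only the spread between these libraries. Xist, transcribed from the inactive X chromosome, stood at 459.6 and 636.3 CPM, a count scaled to the depth of its library, in the proliferating libraries and at 450.9 and 377.4 in n-Sen, and the Y-linked Ddx3y, Kdm5d, Eif2s3y and Uty had no count in any of the 8. The fall of Xist, -0.40 ± 0.10 on the log2 scale (SE, adjusted p = 0.00225), was lost with DESeq2 (adjusted p = 0.182).

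Of 19264 genes with enough counts to test, 12930, or 67.1%, were called at an adjusted p under 0.05. They divided into 6553 higher in n-Sen (34.0%) and 6377 lower (33.1%), and the median log2 fold change over all genes tested was 0.00149. The scaling of the libraries (TMM) takes most genes as unchanged, so the near even split and the median near 0 follow in part from it. With total counts alone 6163 were higher and 6791 lower, with a median of -0.05. Levels are relative within each library, so a shift in total RNA per cell would not show. Changes of at least 4-fold were more often upward, with 1545 genes higher (8.02%) and 888 lower (4.61%). This lean lay mostly in genes of low level. Counted whether called or not, 685 genes with a mean under 1 CPM rose that much and 294 fell, and at 1 to 10 CPM 605 rose and 248 fell. At 10 to 100 CPM 220 rose and 316 fell, and over 100 CPM 40 rose and 30 fell. At least 16-fold changes were called upward in 410 genes (2.13%) and downward in 231 (1.20%). The groups did not overlap in 83.4% of the genes tested, so neither a call nor a lack of overlap is rare here, and the lists below are read against these shares.

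**Figure D1:**
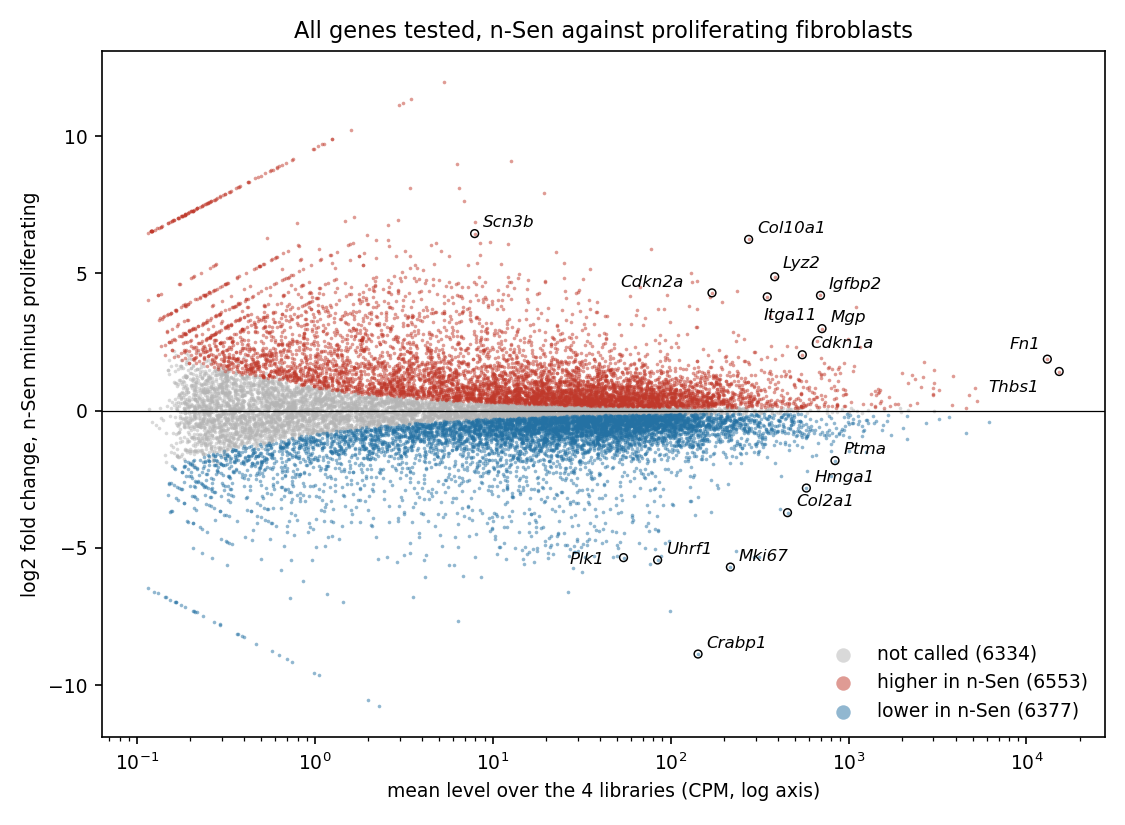
Each point is 1 of the 19264 genes tested, placed by its mean level over the 4 libraries (CPM, log axis) and its log2 fold change, n-Sen minus proliferating, with calls at an adjusted p under 0.05 in colour. The called genes lie on both sides in near equal number, 6553 above and 6377 below, a balance that depends in part on the scaling of the libraries. The straight lines of points at the left are genes with no or few counts in a group.

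The labelled cell type was checked first. Of 18 fibroblast markers 14 were higher and 3 lower, and their summed level was 22010 to 22210 CPM in proliferating cells and 46980 to 47440 CPM in n-Sen. Fibroblast identity genes nonetheless moved apart: Col3a1, a fibrillar collagen, went from 281 and 284 CPM to 1724 and 1702, while Pdgfra, a receptor widely used to mark fibroblasts, went from 85.4 and 93.2 CPM to 10.9 and 9.09, and Fbln1, a matrix glycoprotein, from 47.3 and 45.4 CPM to 3.69 and 3.57. Each of the 3 genes held its n-Sen level apart from the proliferating level in both libraries, as did 83.4% of all genes tested.

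Macrophage markers rose as a list. Of 25 markers 24 could be tested and all 24 were higher in n-Sen, with a median log2 fold change of 4.25, and their summed level was 67.3 and 74.8 CPM in proliferating cells against 1455 and 1560 CPM in n-Sen. Lyz2, lysozyme, made up much of that sum at 722 and 766 CPM in n-Sen. Mpeg1, which encodes a pore-forming protein of phagocytes, stood at 5.82 and 5.43 CPM in the proliferating libraries, with 121 and 135 in n-Sen, and Adgre1, which encodes F4/80, at 1.38 and 0.976 against 47.8 and 50.4. Cd163, a scavenger receptor of some macrophages, was at 0 in n-Sen. Lymphocyte markers summed to at most 0.534 CPM in any of the 4 libraries, with 11 of 16 at 0 in all 4, and neutrophil and mast cell markers to at most 1.44 CPM. In bulk RNA, more cells of a type and more RNA per cell cannot be told apart, and the part of macrophage RNA in the results below was not tested.

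Other lineage lists moved less or downward. Smooth muscle and pericyte genes were higher in 11 of 12 with none lower. Myh11, smooth muscle myosin, stood at 65.3 and 58.7 CPM against 429 and 404, and Notch3, a receptor of pericytes and smooth muscle, at 4.46 and 4.82 against 72.7 in each n-Sen library. Epithelial and mesothelial markers were lower in 6 of 9 tested, summing to 96.8 and 100.0 CPM in the proliferating libraries, with 11.3 and 11.4 in n-Sen. Among cartilage and bone genes the type II collagen gene Col2a1 fell from 828 and 859 CPM to 61.4 and 66.9, and its regulator Sox9 from 45.8 and 40.9 to 7.86 and 8.15. In the same list Col10a1, the collagen of hypertrophic cartilage, rose from 6.57 and 7.66 CPM to 535 and 548, with a log2 fold change of 6.24 ± 0.073. The whole list summed to 1163 and 1216 CPM in proliferating cells and 1159 and 1148 CPM in n-Sen.

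**Figure D2:**
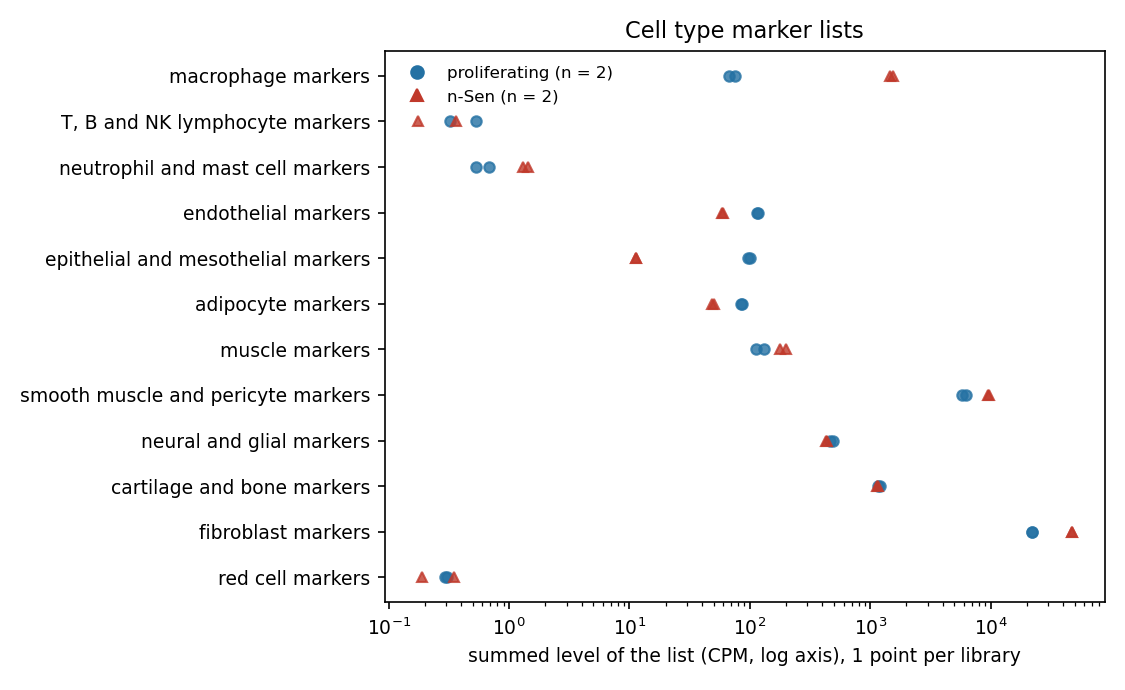
Summed level of each cell type marker list in each library (CPM, log axis), with proliferating libraries as circles and n-Sen libraries as triangles. The macrophage sum lies at 67.3 and 74.8 CPM in proliferating cells and at 1455 and 1560 CPM in n-Sen, and lymphocyte, neutrophil and red cell sums lie near or under 1 CPM throughout.

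The genes that hold the arrest were looked at next. Cdkn1a, the p53 target that encodes the kinase inhibitor p21, rose from 227 and 203 CPM to 881 and 887, and Cdkn2b, which encodes p15, from 26.8 and 26.9 CPM to 154 and 166. Cdkn2a, the locus of p16 and ARF, rose from 17.0 and 16.2 CPM to 310 and 340. Not every inhibitor rose. Cdkn1b, which encodes p27, fell from 43.2 and 49.5 CPM to 11.1 and 9.55 (log2 fold change -2.17 ± 0.10, adjusted p = 3.82e-12), and Cdkn1c, Cdkn2c and Cdkn2d fell with it, by 1.04, 2.24 and 1.53 on the log2 scale. In all 4 of these the groups did not overlap, as in 83.4% of all genes tested.

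The retinoblastoma family and the cyclins divided as well. Rb1 rose from 15.1 and 16.8 CPM to 35.0 and 36.1 and Rbl2, the p130 partner of the DREAM complex, from 26.6 and 24.1 CPM to 42.4 and 43.5. Rbl1, which encodes p107, fell from 32.5 and 35.7 CPM to 6.97 and 7.60. Of the D cyclins, which drive entry into the cycle, Ccnd2 rose from 465 and 439 CPM to 1275 and 1288 and Ccnd1 from 354 and 337 CPM to 436 and 467, while Ccnd3 was not called (adjusted p = 0.504). The E cyclins fell, Ccne1 by 2.28 and Ccne2 by 2.97 on the log2 scale, and so did the activators Foxm1 and Mybl2, with log2 fold changes of -3.86 and -6.61, and the repressor E2f7, with -5.30. E2f1 fell little, from 41.2 and 41.7 CPM to 30.5 in each n-Sen library.

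Among p53 targets and survival genes, Fas, a death receptor, rose from 3.93 and 3.27 CPM to 45.9 and 45.2, and Ccng1 from 425 and 457 CPM to 1331 and 1336. The death genes Bax and Bbc3 were not called (adjusted p = 0.319 and 0.849), with Bax at 140 and 120 CPM against 121 and 125. Of the survival genes of the BCL-2 family, Bcl2l2 rose from 40.9 and 41.8 CPM to 112 and 115 and Mcl1 by 0.28 on the log2 scale, while Bcl2l1 stayed uncalled (adjusted p = 0.947) at 101 and 108 CPM against 102 and 107. Bcl2 fell by 0.23 (adjusted p = 0.0424), a call lost with a replicate block (adjusted p = 0.0570) and when any 1 of the 4 libraries was left out. Gdf15, a stress cytokine often raised by p53, was not called at 11.8 and 9.13 CPM against 9.93 and 11.1.

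The machinery of mitosis fell almost whole. Of 39 mitotic kinases, motors and checkpoint genes 38 were lower and 1 higher, with a median log2 fold change of -4.38, and of 38 kinetochore and centromere genes 35 were lower and 1 higher, with a median of -3.09. Both lists lie far below the median of all genes. Cdk1, the kinase that starts mitosis, stood at 139 and 143 CPM in the proliferating libraries, with 8.62 and 8.01 in n-Sen, and Bub1b, a spindle checkpoint kinase-like protein, at 92.9 and 91.2 against 2.52 and 2.06. Racgap1, needed to divide the cell, went from 143 and 145 CPM to 6.80 and 7.07. For Cdk1, Bub1b and Racgap1 no n-Sen library came near a proliferating one.

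Most genes of the kinetochore, which ties chromosomes to the spindle, fell as well. Cenpa, the histone H3 variant that marks the centromere, fell from 84.6 and 82.1 CPM to 2.72 and 3.40, and Cenpe, a kinetochore motor, from 151 and 165 CPM to 5.43 and 4.18 (log2 fold change -5.05 ± 0.097, adjusted p = 3.42e-17). The 1 member of this list that rose, Cenpp, of the inner kinetochore, did so from a low level, 5.34 and 6.65 CPM to 9.17 and 9.38. In the mitotic list the 1 that rose was Pttg1, securin, from 8.13 and 7.93 CPM to 11.2 and 10.4. The Pttg1 call did not hold without n-Sen replicate 1 (log2 fold change 0.371, against 0.427 in the main fit). Condensin and cohesin genes were lower in 21 of 23, with a median of -1.26, among them the condensin subunits Ncapd2 (188 and 188 CPM against 6.65 and 7.37) and Ncapg (56.1 and 68.0 against 2.26 and 2.003).

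Promoter sequence was set beside these falls, because cell cycle genes are known to carry a cell cycle homology region (CHR) and CCAAT boxes near the start of transcription. Promoters of 3 mitotic genes and 1 replication gene with steep falls are shown, from 250 bases before to 50 after the start, 5′ to 3′ on the strand of the gene, from RefSeq on GRCm38.p6. They were chosen after values were seen and because they hold the motifs. These were CHR with CCAAT for the 3 mitotic genes and an E2F site for Mcm3. The matches were thus fixed by the choice and do not show how often steeply falling genes carry them. Over the mitosis, kinetochore and condensin lists, 35.5% of promoters held both CHR and CCAAT. Mcm10 and Mcm5 fell more than Mcm3, with log2 fold changes of -5.02 and -4.84 against -4.21. Capitals mark the matches: CHR (TTTGAA) and CCAAT on either strand in Plk1, Ttk and Kif11, and E2F sites in Mcm3. The regions are chr7:122159185-122159484 (plus strand) for Plk1, chr9:83834439-83834738 (plus) for Ttk, chr19:37376132-37376431 (plus) for Kif11 and chr1:20820263-20820562 (minus) for Mcm3.
Plk1: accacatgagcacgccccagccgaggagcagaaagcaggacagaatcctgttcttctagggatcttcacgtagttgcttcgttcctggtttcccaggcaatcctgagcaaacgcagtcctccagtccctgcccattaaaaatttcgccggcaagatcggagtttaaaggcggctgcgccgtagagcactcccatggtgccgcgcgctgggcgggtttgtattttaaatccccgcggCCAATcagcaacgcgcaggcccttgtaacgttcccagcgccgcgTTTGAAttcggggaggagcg
Ttk: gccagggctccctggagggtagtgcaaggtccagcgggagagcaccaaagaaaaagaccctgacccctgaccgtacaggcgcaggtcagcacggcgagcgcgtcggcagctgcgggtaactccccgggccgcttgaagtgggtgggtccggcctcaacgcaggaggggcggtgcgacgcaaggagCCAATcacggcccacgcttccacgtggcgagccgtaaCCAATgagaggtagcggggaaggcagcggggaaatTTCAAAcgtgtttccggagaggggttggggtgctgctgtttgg
Kif11: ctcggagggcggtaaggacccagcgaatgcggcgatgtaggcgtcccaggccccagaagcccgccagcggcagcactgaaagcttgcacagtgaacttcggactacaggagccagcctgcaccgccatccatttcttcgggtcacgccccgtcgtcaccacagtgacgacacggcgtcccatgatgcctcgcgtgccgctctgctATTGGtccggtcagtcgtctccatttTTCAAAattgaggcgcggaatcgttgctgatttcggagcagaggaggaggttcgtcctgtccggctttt
Mcm3: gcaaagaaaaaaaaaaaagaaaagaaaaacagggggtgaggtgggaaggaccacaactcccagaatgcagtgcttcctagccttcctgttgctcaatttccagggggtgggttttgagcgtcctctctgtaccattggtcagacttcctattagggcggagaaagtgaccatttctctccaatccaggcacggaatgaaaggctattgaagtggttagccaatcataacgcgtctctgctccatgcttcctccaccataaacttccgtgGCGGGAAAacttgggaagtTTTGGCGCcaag

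Plk1, the mitotic kinase that BI-2536 inhibits, stood at 106.1 and 106.0 CPM in the proliferating libraries, with 3.37 and 1.89 in n-Sen. Ttk, a checkpoint kinase, stood at 29.7 and 30.7 against 0.869 and 0.756, and Kif11, the motor that separates spindle poles, at 50.9 and 55.2 against 1.998 and 1.29. In Plk1 the CCAAT match starts at base -14 and the CHR at base 31 relative to the start, in Ttk at -65 and -28 with the CHR at 8, and in Kif11 at -45 with the CHR at -19. In each of the 3 the CCAAT match lies upstream of the CHR. Mcm3, a subunit of the replicative helicase, fell by 4.21 on the log2 scale and has E2F matches starting at 20 and 39.

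Across genes, these letters were most frequent where the fall was steepest. The search covered TTTGAA for the CHR, CCAAT, and TTTCCCGC, TTTGGCGC, TTTCGCGC or TTTGCCGC for E2F sites, on both strands, and none of the 3 motifs contains another. Of 19264 genes tested 12232 matched a RefSeq promoter, with 15571 promoters. A CHR stood in 38.0% of the 179 promoters of genes lower by at least 16-fold, in 19.0% of the 463 of genes lower by 4- to 16-fold, in 12.5% of uncalled genes and in 15.8% of those at least 4-fold higher. All promoters tested held one in 12.6% and all 32851 promoters of the table in 17.9%. CCAAT stood in 54.2% of the steepest class against 37.3% of all tested, both motifs together in 26.8% against 5.22%, and an E2F site in 11.2% against 3.69%. In the table as a whole CCAAT and E2F shares were 37.4% and 2.26%.

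The mitosis, kinetochore and condensin lists were counted together. Of their 93 promoters 47.3% had a CHR, 64.5% a CCAAT box and 35.5% both. The 28 promoters of recombination and Fanconi genes had CCAAT in 64.3% and an E2F site in 17.9%, but a CHR in 14.3%, near the share over all genes tested. Nuclear pore and import genes, whose median log2 fold change was only -1.18, had a CHR in 31.6% of their 38 promoters. Ribosome biogenesis and nucleotide synthesis genes had one in 9.3% and 8.57%. A raised CHR share was therefore not limited to the mitotic lists. At the other end, promoters of genes at least 16-fold higher had a TATA box (TATAAA) in 18.9% and an AP-1 match (TGANTCA) in 13.4%, against 7.86% and 5.73% of all tested. In the whole table those shares were 13.6% and 7.81%. A match is a run of letters in this window and not a bound site.

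Genes for DNA repair by recombination and for the supply of nucleotides fell. Of 34 recombination and Fanconi genes 31 were lower and 2 higher, with a median log2 fold change of -2.81. Exo1, which trims DNA ends, went from 29.4 and 29.5 CPM to 0.695 and 0.529, and Blm, a helicase, from 31.0 and 30.6 CPM to 2.13 and 2.40. The 2 that rose did so little, the nuclease gene Mus81 by 0.32 ± 0.10 and Rad51d by 0.30 ± 0.11 on the log2 scale. The Mus81 call was lost without n-Sen replicate 1 (adjusted p = 0.0710). The Rad51d call was lost with total counts in place of TMM (adjusted p = 0.0541), with DESeq2 (0.0570) and without proliferating replicate 2, n-Sen replicate 1 or n-Sen replicate 2 (0.0850, 0.0584 and 0.101).

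Nucleotide synthesis genes were lower in 29 of 33, with a median of -1.43. The subunits of ribonucleotide reductase divided: Rrm1 went from 369 and 355 CPM to 58.8 and 54.5 and Rrm2, the subunit of dividing cells, from 292 and 284 CPM to 49.0 and 51.2. Rrm2b, the p53-inducible subunit, rose from 12.8 and 14.4 CPM to 25.9 and 29.3. Tk1, thymidine kinase of S phase, fell from 72.2 and 70.4 CPM to 4.34 and 5.60, and Adssl1, an adenylosuccinate synthase of muscle, rose from 1.75 and 1.65 CPM to 8.34 and 9.30.

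In chromatin, the chaperones that load new histones fell. Of 31 histone variant and chaperone genes 27 were lower and 2 higher, with a median of -1.20. Chaf1b, of the chromatin assembly factor that works at replication forks, went from 37.5 and 35.1 CPM to 1.98 and 1.89, and Nasp, a histone chaperone, from 135 in each library to 12.5 in each. The variant H2afz, which encodes H2A.Z, fell from 307 and 328 CPM to 51.4 and 46.6. The linker histone gene Hist1h1c rose from 50.8 and 46.8 CPM to 173 and 176, and H2afj, which encodes H2A.J, from 36.7 in each library to 52.5 and 54.1.

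Genes with the symbol stem Hist went the other way from the chaperones: of 55 tested 46 were higher and 2 lower, with a median of 2.39. Transcripts of most of these genes normally end in a stem-loop without a poly-A tail, while the libraries were made from polyadenylated RNA. Hist1h2bc, which was among the most abundant, stood at 26.0 and 27.0 CPM in the proliferating libraries, with 147 and 146 in n-Sen, and Hist1h4n at 0.728 and 0.366 against 21.2 and 22.2. Counts were fractional for 50 of the 55, so reads may have been divided among near-identical copies and single values are uncertain. Hist1h4i fell, from 13.8 and 12.6 CPM to 7.25 and 7.52.

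Of 31 genes of DNA methylation and Polycomb marks 18 were lower and 8 higher, with a median of -0.38. Uhrf1, which brings the maintenance methyltransferase to new DNA, fell from 163 and 167 CPM to 3.84 and 3.76, and Dnmt1, that methyltransferase, from 252 and 261 CPM to 30.2 and 28.2, while the de novo enzyme Dnmt3a rose from 41.5 and 42.8 CPM to 54.5 and 59.2. Ezh2, the main H3K27 methyltransferase of dividing cells, fell from 59.8 and 65.0 CPM to 7.30 and 5.10. Its relative Ezh1 rose from 11.98 and 11.1 CPM to 24.5 and 22.6 (log2 fold change 1.03 ± 0.10, adjusted p = 1.10e-07). The groups did not overlap in any of these 5 genes, nor in 83.4% of all genes tested.

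The nuclear lamina and envelope were also uneven, with 13 of 22 lower, 5 higher and a median of -0.49. Lmnb1, lamin B1, whose loss is a common mark of senescence, fell from 170 and 176 CPM to 4.26 and 4.61, and Lbr, the lamin B receptor, from 88.1 and 90.0 CPM to 13.8 and 15.3. Tmpo, which encodes LAP2, went from 246 and 264 CPM to 16.8 and 19.4. The largest rise of the list was 0.37 on the log2 scale, in Tor1aip2, a lamina-associated membrane protein. Lmna, lamin A/C, singled out after its values were seen, fell by 0.24, from 1061 and 1084 CPM to 889 and 928.

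Gene expression machinery fell by smaller amounts, in most members of each list. Ribosome biogenesis genes were lower in 39 of 40 (median -1.23), nuclear pore and import genes in 35 of 38 (median -1.18), SR and hnRNP splicing factors in 37 of 42 (median -1.11), translation factors in 42 of 48 (median -0.49) and proteasome genes in 33 of 40 (median -0.39). Ncl, nucleolin, went from 1449 and 1499 CPM to 533 in each n-Sen library, and Dkc1, which modifies ribosomal RNA, from 99.7 and 103 CPM to 17.9 and 16.6. Hnrnpa1, a splicing repressor, went from 946 and 971 CPM to 214 and 200, and Rcc1, which sets up the Ran gradient for nuclear import, from 111 and 99.8 CPM to 18.8 and 19.6. Rpl, Utp and Sf genes are named because, of 260 families by symbol stem, they were among the 6 with the largest share called lower. All 50 tested Rpl genes, all 10 Utp genes and all 10 Sf genes were lower, with medians of -0.71, -0.92 and -0.92. Related stems were less uniform, with 37 Rps genes lower and 2 higher of 44, and 43 Eif genes lower and 3 higher of 53. A stem groups symbols by letters alone, so Rps can also take in kinase genes whose symbols start with Rps6k. These counts therefore do not show that ribosomal protein genes of the small and large subunit differed. Counts were fractional for 47 of the 50 Rpl genes, which have many pseudogene copies.

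A few members rose against these lists. In splicing, Mbnl1, Mbnl2 and Rbfox2, regulators of alternative exons, and the kinase gene Srpk2 rose by 0.18 to 0.51 on the log2 scale. Without n-Sen replicate 2 the rise of Mbnl1 was no longer called (adjusted p = 0.0507). In the proteasome, the immunoproteasome subunit genes Psmb8 and Psmb9 rose from 0.291 and 0.285 CPM to 1.74 and 1.63 and from 0.146 and 0.264 CPM to 1.04 and 1.17. These subunits are abundant in immune cells, and macrophage markers summed to 1455 and 1560 CPM in n-Sen against 67.3 and 74.8 in proliferating cells. The part of those cells was not tested.

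**Figure D3:**
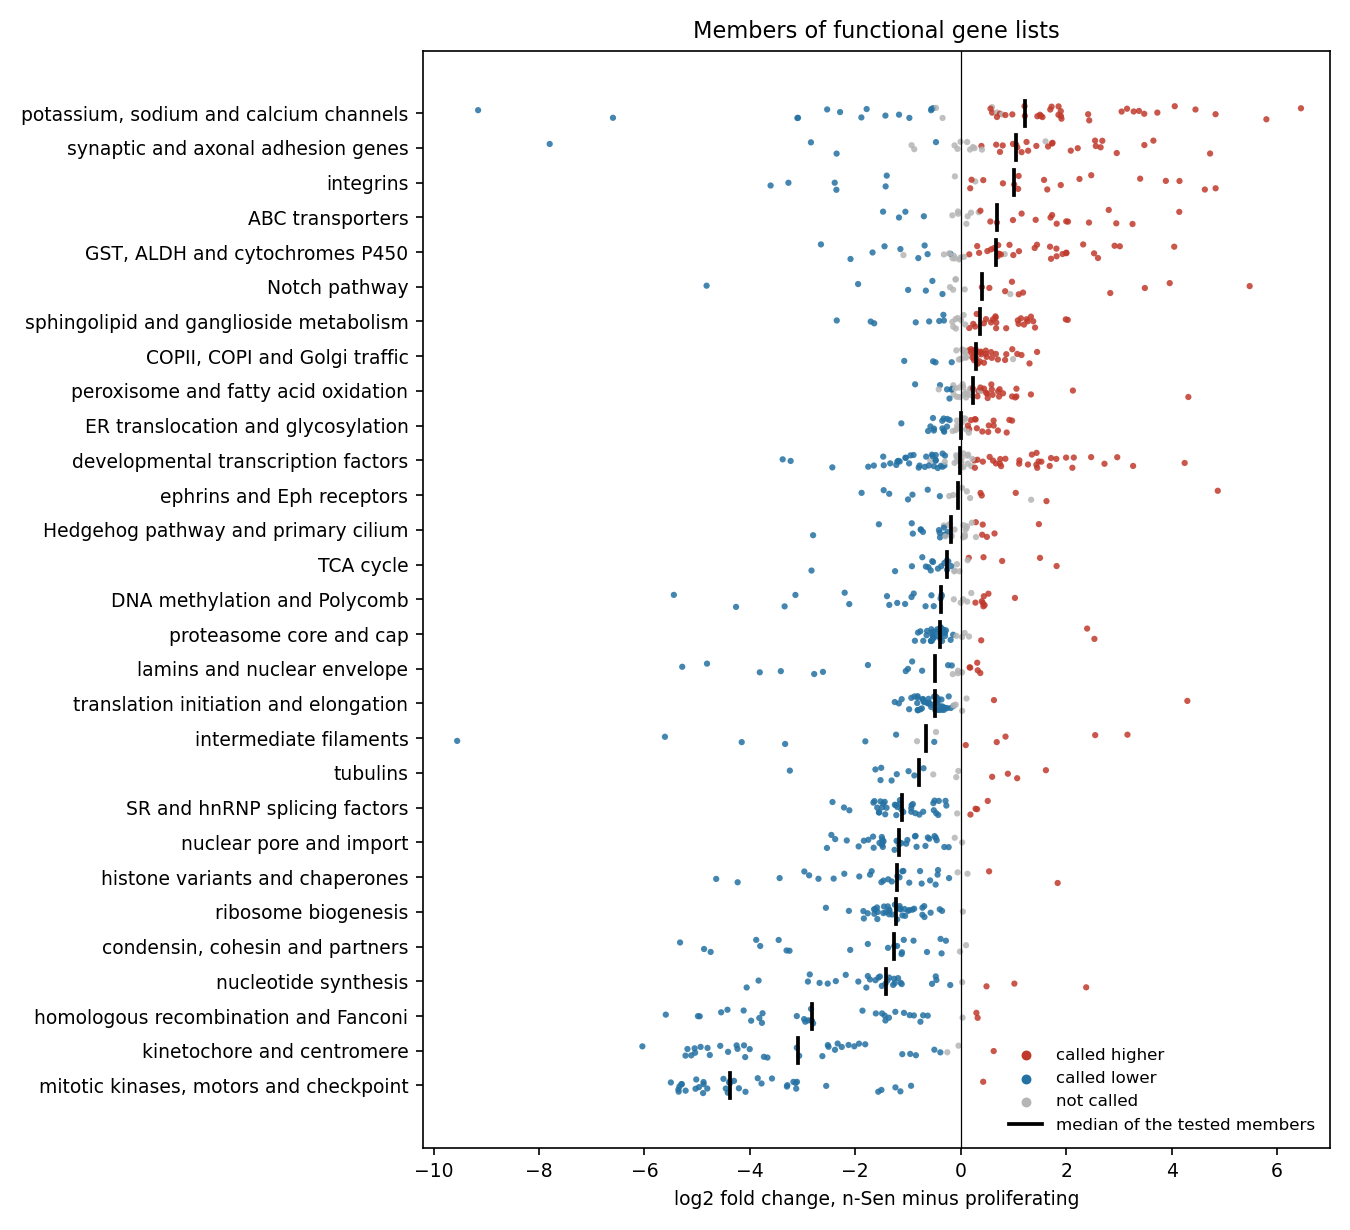
Log2 fold change of every tested member of each functional list, ordered by the list's median (black bar), with called members in colour and the rest in grey. Medians run from -4.38 for mitotic kinases, motors and checkpoint genes to 1.21 for ion channels.

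Between genes, levels were compared per exon length, as TPM. Among genes called with a change of at least 2-fold, the 3 with the largest rise in TPM were the matrix genes Thbs1, Fn1 and Mgp. Thbs1, thrombospondin, stood at 3910 and 4279 TPM in the proliferating libraries, with 11300 and 11070 in n-Sen, and Fn1, fibronectin, at 1424 and 1457 against 5507 and 5251. Mgp, matrix Gla protein, an inhibitor of calcification, rose the most of the 3 in ratio, from 408 and 394 TPM to 3260 and 3217 (log2 fold change 2.99 ± 0.049, adjusted p = 5.31e-18). Of the other 9 among the 12 named, Sparc, Ccn2 and the collagen cross-linking enzyme gene Lox are also matrix genes, with means of 4396, 3457 and 2861 TPM in n-Sen against 1804, 1532 and 998.5. Ctsd, a lysosomal protease, rose from a mean of 497.5 to 2507 TPM, and Lyz2, a lysozyme made by macrophages, from 57.7 to 1724 TPM. Myl9, a myosin light chain, and Itgb1, an integrin, reached 2622 and 3029 TPM. The secreted binders of insulin-like growth factors, Igfbp2 and Igfbp7, reached 2178 ± 98.0 and 3022 ± 66.3 TPM (SD, n = 2).

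The 12 genes with the largest fall in TPM were chosen with the same limit of 2-fold. Ptma, prothymosin, fell from 2718 and 2656 TPM to 774 and 773, and the chromatin protein gene Hmga1 from 1482 and 1387 TPM to 199 and 214. Hsp90ab1, a chaperone, fell from 2863 and 2896 TPM to 1440 and 1429. Tagln2, Txn1 (thioredoxin) and Hspd1 (mitochondrial chaperonin) fell by 2.39, 1.35 and 1.33 on the log2 scale. Crabp1, which binds retinoic acid in the cytoplasm, fell from 1080 and 1052 TPM to 2.34 and 2.28, the steepest of the 24 genes compared this way. Counts were fractional in all 4 libraries for Ptma and Hmga1, whose processed copies may share reads.

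**Figure D4:**
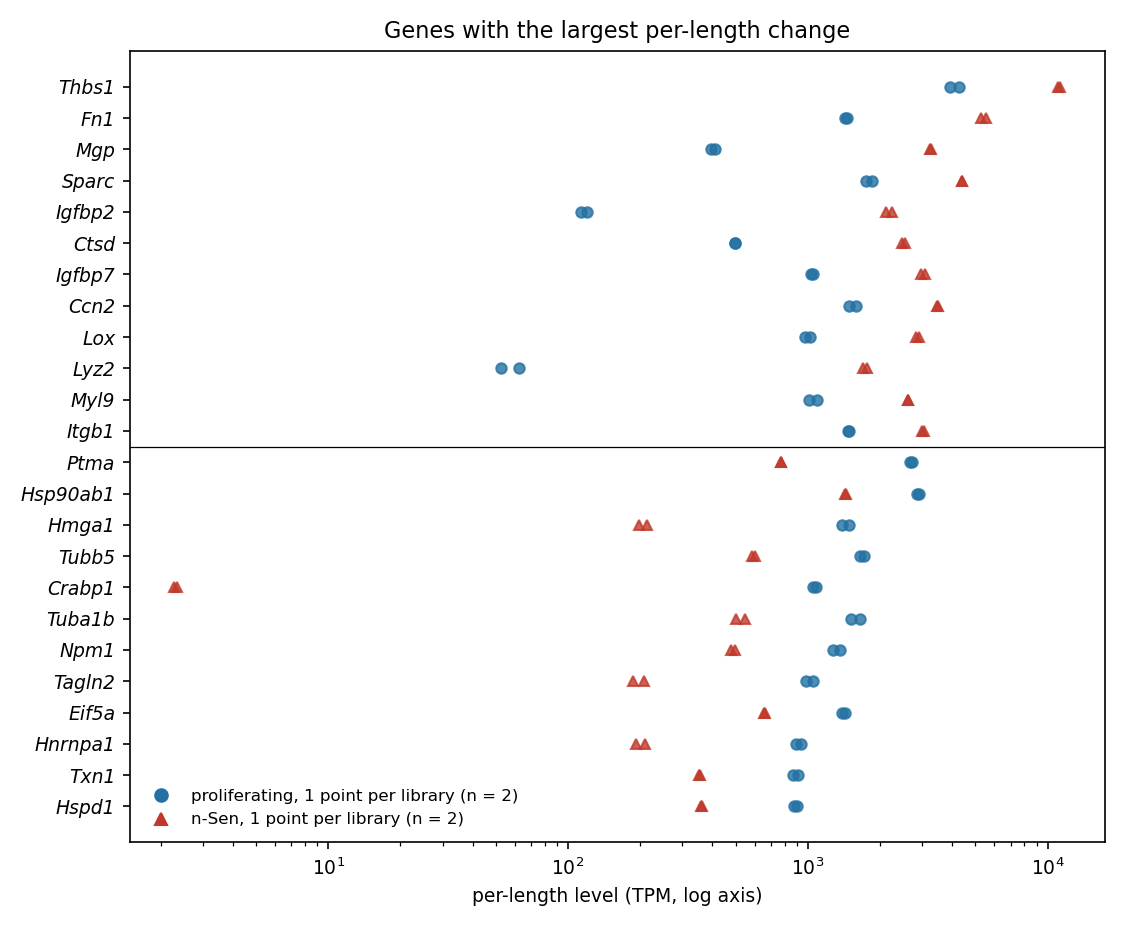
Per-length level (TPM, log axis) in each library of the 12 genes with the largest rise and, under the line, the 12 with the largest fall in TPM among genes changed at least 2-fold. The groups do not overlap in any of the 24, which were chosen for their difference, nor in 83.4% of all genes tested. Crabp1 spans the widest range, from 1080 and 1052 TPM to 2.34 and 2.28 TPM.

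Genes that carry protein out of the cell were raised modestly and unevenly. COPII, COPI and Golgi traffic genes were higher in 34 of 49 and lower in 4 (median 0.29), whereas genes for entry into the endoplasmic reticulum and glycosylation divided into 15 higher and 14 lower of 42 (median -0.000805). Tmed3, a cargo receptor, rose from 37.8 and 38.5 CPM to 103 and 106, and Creb3l1, a transcription factor for secretory genes, from 38.5 and 37.5 CPM to 82.7 and 86.2. Sec62, of the translocation channel, rose from 136 and 142 CPM to 277 and 270. Pdia6, a disulfide isomerase, fell from 598 and 614 CPM to 280 and 275.

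Integrins, the receptors that bind cells to matrix, were higher in 17 of 25 and lower in 6, with a median of 1.02. The collagen-binding chain Itga11 rose from 38.4 and 36.1 CPM to 685 and 638 (log2 fold change 4.15 ± 0.060), Itga1, also collagen-binding, from 19.2 and 19.7 CPM to 96.7 and 88.8, and Itgb5, which binds vitronectin, from 142 and 132 CPM to 508 and 514. The laminin-binding chains fell: Itga3 from 139 and 137 CPM to 28.3 and 24.3, and Itga6 from 108 and 116 CPM to 42.5 and 42.0. The leukocyte integrin chains Itgb2 (0.776 and 1.08 CPM against 24.3 and 29.3) and Itgam (0.728 and 0.528 against 15.1 and 15.8) rose alongside the macrophage list, of which Itgam is a member.

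The cytoskeleton changed in composition. Of 16 tubulins 9 were lower and 4 higher: the abundant Tubb5 and Tuba1b fell by 1.52 and 1.62 on the log2 scale, while Tubb3, known from neurons, rose from 28.7 and 27.1 CPM to 56.3 and 60.8. Among intermediate filaments the keratin genes Krt7, Krt18 and Krt19 fell, and Krt8 went from 2.43 and 1.55 CPM to 0 in both n-Sen libraries, at least 64.2-fold lower, taking 3 counts in the group as the floor. Synm, synemin, rose from 2.28 and 2.54 CPM to 20.7 and 22.6. Vim, the main filament gene of fibroblasts, rose by 0.10 on the log2 scale, from 4512 and 4293 CPM to 4563 and 4847.

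Genes better known from excitable cells were among the lists with the highest medians. Potassium, sodium and calcium channel genes were higher in 32 of 51 and lower in 14 (median 1.21), and synaptic and axonal adhesion genes in 24 of 39 with 4 lower (median 1.05). Kcnj15, an inward rectifier, rose from 1.504 and 1.22 CPM to 29.6 and 29.7. Calcium channel genes of the Cacna family were higher in 8 of 10. Of these Cacna2d1, an auxiliary subunit, rose from 41.9 and 42.9 CPM to 157 and 150, and the T-type pore genes Cacna1g and Cacna1h rose by 2.42 and 3.38 on the log2 scale.

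Some channels fell. Kcnn4, a calcium-activated potassium channel linked to proliferation, went from 20.0 and 20.2 CPM to 3.08 and 3.84, and Scn3a from 1.31 and 1.69 CPM to 0 in both n-Sen libraries. In the adhesion list, the guidance ligands Slit2 and Slit3 rose from 155 and 177 CPM to 353 and 345 and from 88.0 and 87.8 CPM to 215 and 203. The netrin receptor gene Unc5b fell from 502 and 495 CPM to 357 and 363. General neural markers did not follow: 3 of 10 tested were higher and 5 lower.

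In Notch signalling 11 of 23 genes were higher and 6 lower (median 0.40). The receptor gene Notch3, also a pericyte marker, rose from 4.46 and 4.82 CPM to 72.7 in each n-Sen library, and the ligand genes Jag1 and Jag2 from 62.9 and 70.9 CPM to 133 and 129 and from 0.0485 and 0.0813 CPM to 2.91 and 3.23. Dlk1, a non-canonical ligand of embryonic cells, fell from 190 and 171 CPM to 5.73 and 6.99, and Rbpj, the DNA-binding partner of Notch, from 199 in each library to 94.0 and 105. In the Hedgehog and cilium list 14 of 36 were lower and 6 higher (median -0.19), with the factor Gli2 at 20.7 and 20.3 CPM against 7.36 and 6.63 and the decoy receptor Hhip at 5.92 and 6.79 against 0.956 and 0.869. Ephrins and Eph receptors divided into 5 higher and 7 lower of 18. Among them Efna3 rose from 0.970 and 0.650 CPM to 23.2 and 23.8, though its exons overlap another gene, and Ephb2 fell from 48.4 and 48.0 CPM to 14.1 and 12.1.

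In metabolism the lists moved in different directions. Glutathione transferases, aldehyde dehydrogenases and cytochromes P450 were higher in 29 of 48 and lower in 9 (median 0.66). Aldh1a1, which makes retinoic acid, rose from 1.21 and 1.22 CPM to 19.9 and 20.5, and its close relative Aldh1a7, with which it may share reads, from 2.28 and 1.83 CPM to 15.6 and 17.5. Gstm1 fell, from 32.9 and 29.6 CPM to 10.7 and 12.2.

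Sphingolipid genes were higher in 24 of 40 and lower in 8 (median 0.37). Among those that rose were genes of lysosomal breakdown, with Asah1, acid ceramidase, at 265 and 253 CPM against 606 and 627, Hexa at 100.2 and 92.5 against 230 and 235, and Psap, prosaposin, at 588 and 535 against 1141 and 1237. Among those that fell were receptors for sphingosine phosphate: S1pr3 went from 98.5 and 91.2 CPM to 17.7 and 19.5, and S1pr1 and S1pr2 fell by 1.64 and 0.85 on the log2 scale. ABC transporters were higher in 16 of 27 and lower in 4 (median 0.69), with the cholesterol exporter genes Abca1 (6.96 and 10.2 CPM against 59.0 and 61.8) and Abcg1 (1.12 and 1.38 against 12.4 and 11.8) among those that rose. Macrophages also express both exporters, and their part was not tested. Abcc1, a drug and glutathione exporter, fell from 211 and 219 CPM to 100.1 and 108.

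Peroxisome and fatty acid oxidation genes were higher in 23 of 47 and lower in 6 (median 0.23), with the oxidase gene Acox3 at 11.8 and 9.39 CPM against 45.3 and 46.8. Genes of the TCA cycle were lower in 16 of 26 and higher in 5 (median -0.26). Idh2, mitochondrial isocitrate dehydrogenase, fell from 148 and 138 CPM to 22.1 and 18.2 (log2 fold change -2.83 ± 0.082, adjusted p = 6.09e-15), and Cs, citrate synthase, from 359 and 352 CPM to 219 and 211. Pcx, pyruvate carboxylase, rose from 13.1 and 12.4 CPM to 35.5 and 36.8.

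Developmental transcription factors showed no common direction, with 31 higher and 34 lower of 82 tested and a median of -0.00485. Pitx1 and Tbx4, both known from the hindlimb, rose from 8.68 and 7.99 CPM to 36.3 and 37.4 and from 1.795 and 2.32 CPM to 16.3 and 16.2. Six2 fell from 8.25 and 6.54 CPM to 0.717 and 0.851, and Dlx2, Osr1 and Irx1 fell by 1.75, 1.47 and 1.22 on the log2 scale. Prrx1, a limb mesenchyme factor singled out after its values were seen, stayed abundant but fell by 0.80.

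Immune gene families did not move as one: 3 Irf genes were higher and 5 lower of 11, and 0 Traf genes higher and 5 lower of 10. Of 44 Il genes 21 were higher and 11 lower. Toll-like receptor and Ccl chemokine genes are described because their shares called higher were among the 6 highest of 260 families by symbol stem. Toll-like receptor genes were higher in 8 of 9 (median 1.79), with Tlr4 at 12.5 and 14.3 CPM against 29.7 and 28.1 and the endosomal receptor gene Tlr7 at 0.340 and 0.610 against 9.80 and 8.64. Ccl chemokine genes were higher in 11 of 13 (median 2.57). The most abundant, Ccl2 and Ccl7, rose less than that median, from 37.7 and 33.8 CPM to 67.6 and 71.3 and from 25.9 and 21.8 CPM to 67.0 in each n-Sen library. The median is the value of Ccl12, a gene near the floor at 0.146 and 0 CPM against 0.456 and 0.378. Ccl3 and Ccl4, made mainly by leukocytes, were among those that rose, from 0.0485 and 0.163 CPM to 1.93 and 1.096 and from 0.194 and 0 CPM to 1.74 and 1.87 (adjusted p = 1.34e-05 and 1.11e-05). The macrophage list, at 1455 and 1560 CPM in n-Sen against 67.3 and 74.8 CPM, moved with the Tlr and Ccl families, and its part was not tested.

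Of 260 symbol families with at least 8 tested genes, the text describes the 6 with the largest share called in each direction. The Hist, Tlr, Ccl, Cacna, Rpl, Utp and Sf families above were chosen in that way. The protocadherin alpha family had all 12 members higher, but all share exons and their counts were fractional. The Ugt family had 10 of 10 higher, of which 9 share exons, and several of its members carry identical values. The 2 families therefore stand for fewer independent measurements than their counts. In the other direction all 10 Mcm genes were lower (median -3.27), as were 10 of 11 Srsf genes and 19 of 21 Nup genes.

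By class, 38.5% of 14490 protein-coding genes were higher and 35.4% lower. Of 2327 long noncoding RNA genes 27.8% were higher and 18.0% lower, and of 1412 pseudogenes 10.1% were higher and 39.4% lower. Pseudogene counts may hold reads shared with the genes they copy, and that part was not tested. The fifth of protein-coding genes with the longest span had 44.7% higher and 30.8% lower. Mir17hg, the host transcript of a growth-linked miRNA cluster, fell from 13.8 and 14.4 CPM to 0.348 and 0.813. Gm15851, annotated antisense with overlapping exons, rose from 1.26 and 1.02 CPM to 25.6 and 24.7. Without a stated strand setting, reads from such a gene and its partner cannot be told apart.

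In all, 6 genes had at least 5 CPM in n-Sen and at most 3 counts over both proliferating libraries, and 0 genes the reverse. Ppp2r2c, a regulatory subunit of phosphatase PP2A, stood at 11.1 and 10.3 CPM in n-Sen with no count in proliferating cells, at least 321-fold higher with the same floor of 3 counts. Npy6r, a neuropeptide Y receptor gene, stood at 6.30 and 6.26 CPM, at least 189-fold higher. Ivl, involucrin, a protein of the outer epidermis, had 1246 counts against 2, a ratio of 569 with a 95% counting interval of 157 to 4710. Lyz1, a lysozyme gene beside Lyz2 with fractional counts, stood at 1.96 and 11.9 CPM, so its n-Sen libraries differed widely from each other. In the 4 other n-Sen libraries, scaled together with these, Ivl ranged from 29.1 to 31.7 CPM and Ppp2r2c from 8.70 to 13.9 CPM, while Lyz1 ranged from 0.0995 to 1.60 CPM.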

How the data were processed

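Per the labels' protocols, directional (dUTP) libraries were made from polyadenylated RNA. The submitters' processing notes name the build mm10, HISAT2 2.1.0, fastp 0.23.2, DESeq2 1.34.0 and, from Subread 2.0.2, featureCounts; the annotation release and strand setting are not given in the sources used here. The authors deposited expected counts, which are estimates and can hold fractions: 32.7% to 33.7% of nonzero values per library were fractional. They were rounded to whole numbers. GENCODE vM21 gave symbols for 54809 of 54838 IDs.

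On the 4 libraries alone, edgeR 4.0.16 (R 4.3.3) filtered genes (filterByExpr), computed TMM factors and ran its quasi-likelihood F test, with calls at a Benjamini-Hochberg adjusted p under 0.05 (biological coefficient of variation 0.0646). CPM used TMM-scaled totals, TPM exon lengths. The procedure was run on simulated counts with 200 changed genes, far fewer than were called here. That run therefore does not show how it performs when most genes change. A chi-square per degree of freedom over genes was 7.39 between the proliferating and 5.02 between the n-Sen libraries, so neither pair is 1 library deposited again. Intervals and floors cover counting error only. Setting members at 0 in a group to their floor left each list median as it was.

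Members and lists were chosen with earlier results of these data known. The text names the 12 genes per direction with the largest per-length difference at 2-fold or more, up to 4 members of smallest p per list and direction, key senescence genes, lncRNA, factor, channel and adhesion genes of largest change at 5 CPM or more, sex-linked genes, families, opposite members of 7 lists, and genes near 0 in 1 group. Fibroblast, macrophage, lymphocyte, neutrophil and mast cell, red cell, endothelial, epithelial, adipocyte, muscle, smooth muscle, neural, and cartilage and bone markers were checked. Alternatives covered scaling, filters, rounding, a replicate block, leaving out each library, all 8 libraries, DESeq2 1.42.0, a test against a fold of 1.5 and a shorter promoter window. Some genes that the rule names are left out of the text.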

Additional observations from a re-analysis of the deposited data

How the results depend on the processing

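Of 348 named genes checked, 278 kept direction and call under every setting planned in which they had a value, none reversed there, and 0 genes of the whole table were called in opposite directions. Some of the 348 had no value with at least 1 CPM required in both libraries of a group, and single genes were not followed in the setting with whole counts only. The main counts were 6553 higher and 6377 lower. Testing against a fold of 1.5 left 3616 higher and 3112 lower, by construction fewer. With genes limited to the 7133 with whole counts and no shared exon, a setting chosen after seeing the data, 2720 were higher and 2197 lower, from fewer genes tested. Leaving out 1 library gave 5714 to 6315 higher and 5722 to 6090 lower. DESeq2 called 5909 and 5706. With total counts in place of TMM, 6163 were higher and 6791 lower. Replicate numbers did not pair the libraries (correlation of deviations between groups -0.00306), and the replicate block gave 6455 higher and 6271 lower. In promoters cut to 100 bases before and 50 after the start, genes lower by at least 4-fold had a CHR in 16.8%, CCAAT in 37.7% and an E2F site in 6.07%, against 24.3%, 48.0% and 9.35% in the full window. Among all genes tested the shorter window held 5.00%, 24.6% and 2.06%, so every share fell with the window. With the fold of 1.5, 65 of the 348 named genes lost their call, and genes uncalled in the main test are among the rest. Under the other settings, of the genes described above, calls were lost for Bcl2, Rad51d, Mus81, Pttg1, Mbnl1 and Xist, and Bax was called lower without proliferating replicate 2 (adjusted p = 0.0056). With 2 libraries a group, low genes are the least certain: 25.6% of genes under 1 CPM were called higher and 14.2% lower.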

Other observations

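A few gene groups outside the lists above were read as values only. Endothelial markers summed to 114 and 116 CPM in the proliferating libraries, with 59.5 and 58.8 CPM in n-Sen: the receptor gene Kdr fell from 24.6 and 21.2 CPM to 2.59 and 2.65, while the factor Erg rose from 0.0970 and 0.203 CPM to 2.17 and 1.99. Adipocyte markers were lower in 2 of 4 tested with 0 higher. Muscle markers were higher in 3 of 6 and lower in 2. Of 2 factors of the muscle lineage, Pax7 had no count in either group, and Myod1 had 10 counts in proliferating cells and 0 in n-Sen. Neither had enough counts to test. Red cell markers summed to at most 0.348 CPM in any of the 4 libraries.

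Ribosomal protein genes took 4.35% and 4.26% of all counts in the proliferating libraries, with 2.52% and 2.54% in n-Sen, whereas collagen genes took 1.73% and 1.79% against 3.12% and 3.00%. Fn1 alone took 0.568% and 0.572% against 2.06% and 1.98%. Transcripts of the mitochondrial genome moved little, at 1.53% and 1.48% against 1.78% and 1.85%.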
